A study of Mus musculus with 27 samples.

Results

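Igf1, Igfbp2, Egfr and Lifr are 4 mouse genes for growth factor signals that are high in liver. They were selected on earlier measurements of these same arrays. All mouse probe sets named for them were taken, which gave 5 probe sets of the 702 mouse probe sets on the array and 4 genes of 573. Igf1 (NM_010512_s_at), Igfbp2 (NM_008342_s_at) and Egfr (NM_007912_at) had 1 probe set each. Lifr had 2, D17444_s_at and NM_013584_s_at. The study profiled total RNA of 9 tissues from wild-type C57BL/6 male mice aged 6 to 8 weeks, with 3 arrays a tissue and no treatment. The tissues were liver, brain, kidney, spleen, thymus, lymph node, testis, lung and bone marrow taken from femurs. The array is a custom 1-colour Affymetrix design for glycogenes, the genes that build, remodel or bind sugar chains. No label says whether the 3 arrays of a tissue are from separate animals, so p-values measure the spread between arrays only, which may be technical.

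Insulin-like growth factor 1, encoded by Igf1, is the hormone that carries much of the growth signal of growth hormone, and liver is its main source in blood. Igfbp2 encodes a secreted protein that binds insulin-like growth factors and alters their access to the receptor. Egfr encodes the epidermal growth factor receptor, a membrane tyrosine kinase involved in hepatocyte growth and liver regeneration. Lifr encodes the receptor chain for leukemia inhibitory factor, which signals with gp130, the product of Il6st, and takes part in the acute phase response of liver. The mouse Lifr gene is known to give both a membrane receptor and a soluble form, and the sources used here do not give which transcripts each Lifr probe set reads.

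The upstream sequences of the 4 genes are shown because the 4 genes were high in the same tissue. Igfbp2 and Lifr have a pair of windows each, and the second Igfbp2 window is not printed. The Igf1 gene is annotated from chr10:87858265 and the Lifr gene from chr15:7090610. Both positions are upstream of the windows of the gene, so these need not cover all its starts. Each is the 250 bases before an annotated start in RefSeq, build GRCm38.p6, and 4 of the 4 genes matched with 6 windows in all. Capitals mark matches, on either strand, to CAAAG (a core motif of HNF4 sites) and GTTAAT (a core motif of HNF1 sites), both factors of hepatocytes; they may read as CTTTG and ATTAAC on the strand printed.
Igf1, chr10:87860861-87861110, plus strand: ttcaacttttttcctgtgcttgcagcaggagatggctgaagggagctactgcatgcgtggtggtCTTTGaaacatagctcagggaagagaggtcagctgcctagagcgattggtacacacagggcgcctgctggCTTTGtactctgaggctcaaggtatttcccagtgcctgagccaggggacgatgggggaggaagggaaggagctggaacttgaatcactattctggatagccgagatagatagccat
Igfbp2, chr1:72824230-72824479, plus strand: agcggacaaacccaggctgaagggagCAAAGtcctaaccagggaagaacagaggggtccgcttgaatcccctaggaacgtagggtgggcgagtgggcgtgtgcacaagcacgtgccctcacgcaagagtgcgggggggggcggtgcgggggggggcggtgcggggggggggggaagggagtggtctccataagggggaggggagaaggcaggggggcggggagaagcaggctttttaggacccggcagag
Egfr, chr11:16751953-16752202, plus strand: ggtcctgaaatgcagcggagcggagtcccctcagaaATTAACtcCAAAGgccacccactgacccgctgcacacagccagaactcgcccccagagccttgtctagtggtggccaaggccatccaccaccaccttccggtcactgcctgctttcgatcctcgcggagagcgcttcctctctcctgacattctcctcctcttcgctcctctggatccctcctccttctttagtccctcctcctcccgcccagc
Lifr, chr15:7129322-7129571, plus strand: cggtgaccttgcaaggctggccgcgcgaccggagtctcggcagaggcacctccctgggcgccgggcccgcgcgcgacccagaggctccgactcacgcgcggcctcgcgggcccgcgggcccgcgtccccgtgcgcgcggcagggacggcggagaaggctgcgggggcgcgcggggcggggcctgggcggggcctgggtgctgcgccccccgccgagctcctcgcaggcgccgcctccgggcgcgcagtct
Lifr, chr15:7140292-7140541, plus strand: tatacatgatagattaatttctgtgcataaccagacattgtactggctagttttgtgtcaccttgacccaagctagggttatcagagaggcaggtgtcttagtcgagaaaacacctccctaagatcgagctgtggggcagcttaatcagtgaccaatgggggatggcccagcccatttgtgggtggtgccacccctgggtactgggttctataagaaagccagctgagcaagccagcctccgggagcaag
CAAAG or its reverse began 186 and 116 bases before the Igf1 start used here, 224 before the first Igfbp2 start and 206 before the Egfr start. This motif is in 48.6% of all 32851 RefSeq promoter windows. GTTAAT was found once, 214 bases before the Egfr start, and is in 6.43% of all windows. The other motifs searched on both strands were TATAAA (12.4% of windows), TTGCNNAA for C/EBP (9.56%) and TTCNNNGAA for STAT (7.02%), and none of the 6 windows held them. Neither Lifr window and not the second Igfbp2 window matched any of the 5 motifs. The starts of the Lifr windows lie 10970 bases apart. The first Lifr window has a GC content of 82.4%, which 0.578% of all windows reach, and the second has 50.8%, beside a median of 52.4%. A match describes these letters and is not a binding site.

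Values are array intensities on a linear scale, as deposited. Array medians lay between 221.5 and 243.7. All 27 arrays correlated best with another array of their own tissue, with r between 0.935 and 0.987 within a tissue, and no pair of arrays was identical. The array also carries 839 human probe sets, which here met mouse RNA only and give a rough level of background. Their median was 205.2 and their 95th percentile 590.1. The sum of the hepatocyte markers measured (Asgr2, Mbl1, Mbl2 and Ugt2b5, 4 of the 11 listed) was between 14055 and 19253 in liver and at most 2328 on any other array, with none of the 4 at 0. Whole tissues were measured, so more cells of a type and more RNA per cell cannot be told apart.

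**Figure D1:**
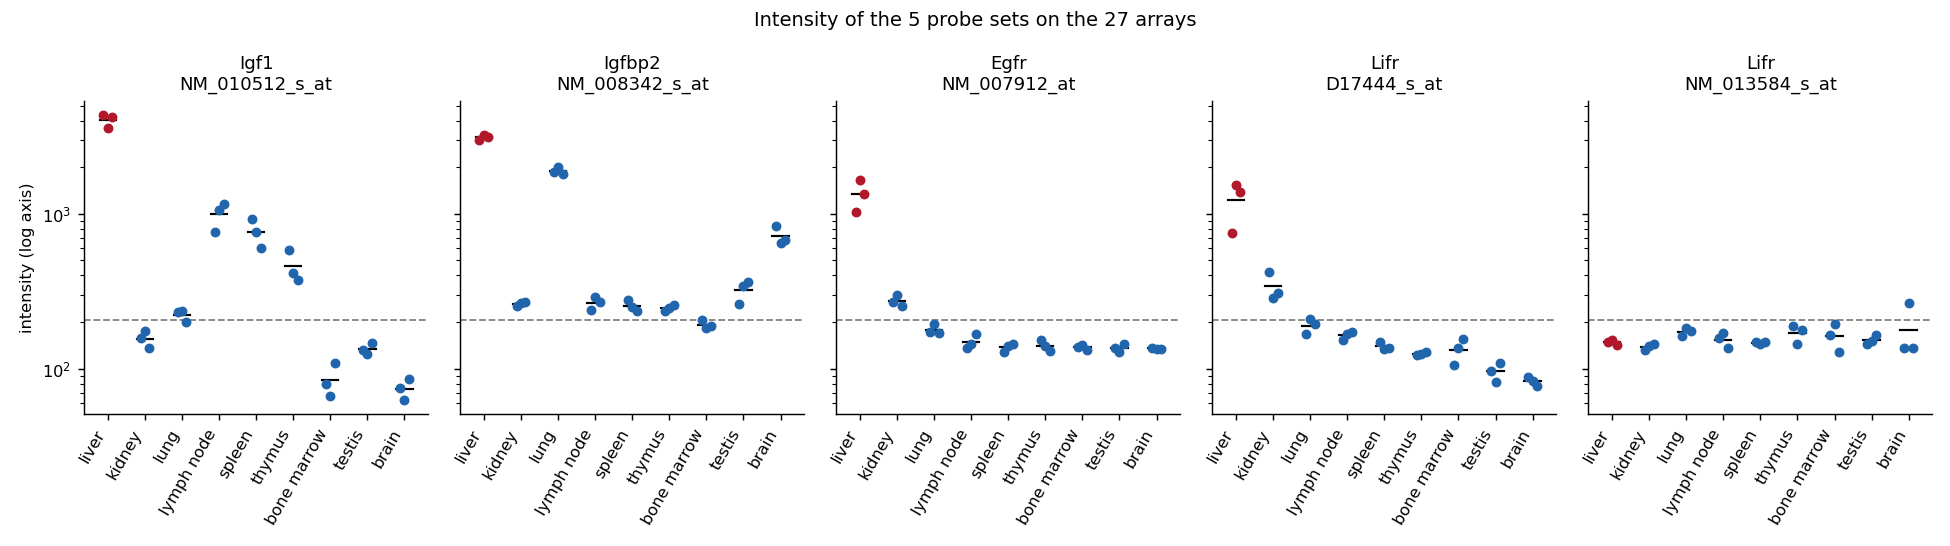
Intensity (log axis) of the 5 probe sets on each of the 27 arrays, by tissue. Points are arrays (red for liver, blue for the others), black bars are means of 3 arrays, and the dashed line is the median of the human probe sets, 205.2. Liver is highest in 4 panels, while the second Lifr probe set lies near or below the line in every tissue.

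Igf1 was read at 4359.9, 3599 and 4212 in the 3 liver arrays, a mean of 4057 ± 403.6 (SD, n = 3). The lymph node arrays gave 769, 1060.3 and 1156 and the spleen arrays 928, 762 and 604, and these tissues overlapped. All liver arrays lay above every other array, with the lowest liver array 3.11-fold above the highest lymph node array. The thymus arrays followed at 585, 413 and 375, below all spleen arrays and above all lung arrays, which gave 232, 236 and 199. Kidney (156 ± 19.4) and testis (134 ± 11.5) overlapped. Bone marrow (84.8 ± 21.5) and brain (74.3 ± 11.6, both SD, n = 3) overlapped too and were the lowest. Of the 24 non-liver arrays, 13 were below the median of the human probe sets. On the log2 scale liver exceeded the mean of the other 8 tissues by 4.10, or 17.2-fold, which is a description since the gene was selected for it.

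Igfbp2 was read at 3002, 3229 and 3145 in liver, a mean of 3126 ± 114.8 (SD, n = 3). Lung came next at 1865, 2017 and 1812, and then brain at 832, 648 and 680.3. None of these 3 tissues overlapped with another, and the lowest liver array was 1.49-fold above the highest lung array, the smallest such gap among the 4 probe sets that are highest in liver. Testis arrays at 263, 340.1 and 363 were below all brain arrays. Lymph node (267 ± 26.0), kidney (263 ± 9.16), spleen (253 ± 21.3) and thymus (247 ± 11.0) each overlapped with the next in order. Bone marrow, at 205, 183 and 189, was below all thymus arrays and lowest. Liver exceeded the mean of the other 8 tissues by 3.07 on the log2 scale (8.41-fold, a description).

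Egfr was read at 1035, 1659 and 1344 in liver, a mean of 1346 ± 312.2 (SD, n = 3). Kidney arrays gave 270.4, 299 and 254, and lung arrays 173, 193 and 170.3. Liver lay above kidney, kidney above lung and lung above lymph node (149 ± 16.7) with no overlap. Thymus, bone marrow, spleen, testis and brain had means between 135 and 141, and each of these overlapped with its neighbour in order. Of the 24 non-liver arrays 21 were below the median of the human probe sets, so the order of the low tissues may be background. Liver exceeded the other 8 tissues by 3.08 on the log2 scale (8.47-fold, a description), and the lowest liver array was 3.47-fold above the highest kidney array.

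The Lifr probe set D17444_s_at was read at 754, 1539 and 1389 in liver, a mean of 1227 ± 416.9 (SD, n = 3), with replicate 1 low. Replicate 1 was also the lowest liver array for Egfr, at 1035, but not for the sum of hepatocyte markers, where it gave 19253 beside 14055 and 19236. Kidney arrays gave 422, 287 and 309.7, and lung arrays 168, 209 and 193, with no overlap between the 3 tissues. Lymph node (165 ± 11.2) overlapped with lung and lay above spleen (139 ± 8.81). Spleen, bone marrow (132 ± 25.0) and thymus (124 ± 2.84) overlapped in turn. Testis (96.1 ± 13.3) and brain (82.7 ± 5.80, all SD, n = 3) overlapped and were below all thymus arrays. Of the 24 non-liver arrays 20 were below the median of the human probe sets. Liver exceeded the other 8 tissues by 3.02 on the log2 scale (8.14-fold, a description), and by 3.34 without liver replicate 1. Most non-liver arrays for Igf1, Egfr and this probe set read below the median of the human probe sets, so the folds given for these genes are ratios of readings that include background and not ratios of RNA.

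The other Lifr probe set, NM_013584_s_at, gave 148, 154 and 143 in liver, which ranked 7 of the 9 tissues. Kidney, at 131, 141 and 143, had the lowest mean. Brain had the highest mean, 179 ± 74.3 (SD, n = 3), from 136, 264 and 136, with replicate 2 apart from both others. All tissues overlapped with their neighbours in order, except that the lowest spleen array (143.65) was above the highest kidney array (143.24). Of the 27 arrays 26 were below the median of the human probe sets, so this probe set stayed near or below that rough level of background. The difference between liver and the other 8 tissues was -0.09 on the log2 scale.

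The Lifr probe sets did not agree. Tissue means of D17444_s_at spanned 3.83 on the log2 scale and those of NM_013584_s_at 0.32. Their Pearson r was -0.49 over 9 tissue means, -0.53 over the 8 non-liver tissues, -0.24 over 27 arrays and -0.06 within tissues. These are descriptions over points that share arrays. In checks added after seeing the data, r over 9 tissue means was -0.12 without brain replicate 2, -0.27 with each array centred on its median and -0.53 with quantile normalization. Differences between tissues made up 96.6% of the variance of D17444_s_at and 22.4% of that of NM_013584_s_at.

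There were 136 pairs of probe sets of 1 gene, over 122 genes, with a median r of 0.82 over 9 tissue means, and 16 pairs were below 0. At the values as deposited 3 pairs, the Lifr pair included, were at or below the r of Lifr. Without brain replicate 2 there were 16 such pairs, and with median centring 6. In 36 pairs 1 probe set spanned at least 3 on the log2 scale, with a median r of 0.97. In 4 of these the other probe set spanned less than 1, and the Lifr pair had the lowest r of the 36, followed by Pf4 at -0.43. This rank depends on the same choices, since the Lifr pair came after Pf4 both without brain replicate 2 (-0.12 against -0.30) and with median centring (-0.27 against -0.56). NM_013584 is among the curated RefSeq transcripts of Lifr. D17444 is not a RefSeq name, so its absence from that list does not show what its probe set reads. The positions of the 2 probe sets along the gene were not compared.

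**Figure D2:**
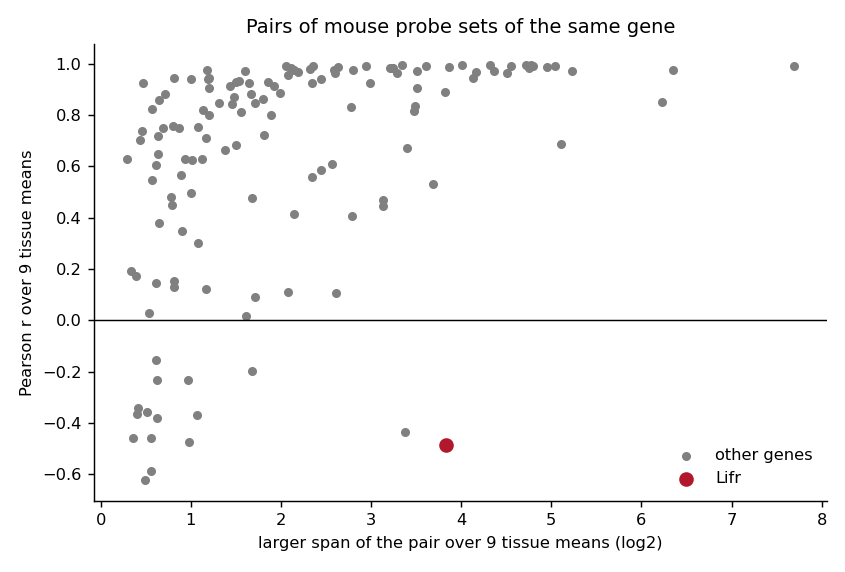
Each point is a pair of mouse probe sets of the same gene, 136 pairs in all. The horizontal axis is the larger of the pair's spans over 9 tissue means (log2) and the vertical axis the Pearson r over those means. The Lifr pair (red) is at a span of 3.83 and an r of -0.49, where most wide pairs are near 1.

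Human probe sets for 3 of the 4 genes were read on the same arrays, and none is named for EGFR. Human IGF1 gave 2161 ± 101.9 in liver, 728 ± 140.3 in lymph node, 683 ± 90.4 in spleen and 414 ± 62.8 in thymus (SD, n = 3). Its means in the other 5 tissues lay between 160.5 and 209. The tissue means followed those of mouse Igf1 with r = 0.98 over 9 tissues and 0.97 over the 8 non-liver tissues. Its liver difference of 2.95 on the log2 scale ranked 1 among the 839 human probe sets, of which 6, or 0.715%, reached 1. The human IGFBP2 probe set varied 1.32-fold between tissues, with r = -0.23 against mouse Igfbp2. The human LIFR probe set varied 1.48-fold, with r = 0.13 against D17444_s_at and -0.05 against NM_013584_s_at.

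**Figure D3:**
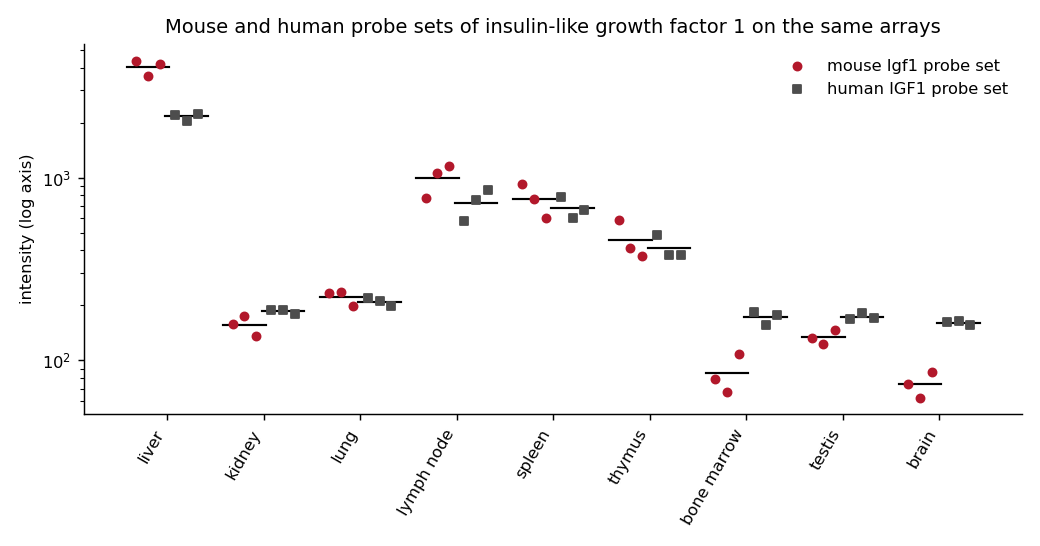
Intensity (log axis) of the mouse Igf1 probe set (red circles) and the human IGF1 probe set (grey squares) by tissue on the same 27 arrays, with bars for means of 3 arrays. Both are highest in liver, then lymph node, spleen and thymus. In brain the human probe set (mean 160.5) does not go as low as the mouse one (74.3).

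Because the 4 genes were selected for liver, they were tested only in contrasts that leave liver out. limma was fitted to log2 intensities of all 702 mouse probe sets. A call needed an adjusted p under 0.05 (Benjamini-Hochberg over the 702) and a log2 difference of at least 1. Among the 8 non-liver tissues 4 of the 5 probe sets were called as different, where 49.0% of all mouse probe sets were. Igf1 spanned 3.74 on the log2 scale (adjusted p = 1.08e-14) and Igfbp2 3.30 (adjusted p = 4.72e-17). Lifr D17444_s_at spanned 2.02 (adjusted p = 5.05e-08). Egfr spanned 1.02 (adjusted p = 4.14e-07), at the edge of the size threshold, and 0.96 without kidney replicate 2. Lifr NM_013584_s_at spanned 0.32 (adjusted p = 0.634) and was not called.

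Each non-liver tissue was then set against the mean of the other 7. Over the 8 contrasts and 5 probe sets, 9 of 40 differences (22.5%) were called, 6 higher and 3 lower, where 12.9% of the 5616 differences of all mouse probe sets were. The 8 contrasts share tissues, so these differences are not independent. Igf1 had 5 of them, Igfbp2 3 and Lifr D17444_s_at 1. Egfr and Lifr NM_013584_s_at had 0 in limma, with 6 and 0 of their 8 differences at an unadjusted p under 0.05.

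Igf1 was higher in lymph node by 2.35 ± 0.15 (log2 difference ± SE, n = 3 arrays; 5.11-fold, limma adjusted p = 1.98e-12). It was higher in spleen by 1.92 ± 0.15 (3.78-fold, limma adjusted p = 1.12e-10) and in thymus by 1.07 ± 0.15 (2.09-fold, limma adjusted p = 3.40e-06). The thymus call was lost without thymus replicate 1, at 0.87. The shares of all mouse probe sets called were 13.0% in lymph node, 11.1% in spleen and 6.84% in thymus, and 1 of the 5 probe sets was called in each. The T cell markers measured (Ccr7 and Il7r, 2 of 5) summed to between 4249 and 5131 in lymph node, 2457 and 3076 in spleen and 1612 and 2018 in thymus. Elsewhere their sum was at most 1209. The B cell markers (4 of 5) summed to between 8054 and 8981 in lymph node and 8450 and 8864 in spleen. Their sum was between 5271 and 6131 in thymus and 5577 and 6467 in bone marrow, where Igf1 was low. It was also between 4542 and 5217 in brain and 4686 and 5899.5 in lung. The Cd22 probe set in this sum, NM_009845_x_at, had means from 2086 in liver to 5423 in spleen. The B cell sums therefore hold a large reading of 1 probe set in every tissue. The fibroblast markers (5 of 7: Bgn, Col14a1, Dcn, Lum and Pdgfrb) summed to between 9319 and 11868 in lymph node and 5516 and 5972 in spleen. Their sum was between 3702 and 6493 in thymus and 13794 and 15697 in lung. Members of this sum did not share 1 order: Bgn was highest in lung (8417 ± 173.8), both probe sets of Dcn and of Lum in lymph node (3379.5 ± 315.0 for Dcn X53929_at) and Col14a1 in spleen (532 ± 103.1, all SD, n = 3). The macrophage markers (4 of 9: Clec4f, Clec7a, Mrc1 and Siglec1) summed to between 1604 and 2333 in lymph node and 2264 and 2497 in spleen. Their sum was between 1014 and 1352 in thymus and 1219 and 1885 in lung. It was between 2415 and 3894 in bone marrow, where Igf1 was low. The bone marrow sum was mostly Clec7a (2862 ± 766.1), while Mrc1 was highest in spleen (1361 ± 23.4, SD, n = 3), and Siglec1 was lowest in bone marrow (65.8) and highest in thymus (81.3). No marker of these lists was at 0, and their part in the Igf1 differences was not tested.

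Igf1 was lower in brain, by -1.91 ± 0.15 (limma adjusted p = 9.44e-11), and in bone marrow, by -1.72 ± 0.15 (limma adjusted p = 8.29e-10). In brain 17.8% of all mouse probe sets were called and in bone marrow 10.7%, beside 2 of the 5 in each. Kidney (-0.68) and testis (-0.93, limma adjusted p = 8.22e-06) were under the size threshold. In testis 0 of the 5 probe sets were called by limma, with 4 at an unadjusted p under 0.05, where 17.4% of all mouse probe sets were called.

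Igfbp2 was higher in lung by 2.69 ± 0.09 (6.44-fold, limma adjusted p = 3.48e-18), in a contrast that called 11.5% of all mouse probe sets and 1 of the 5. It was higher in brain by 1.08 ± 0.09 (2.12-fold, limma adjusted p = 1.46e-10), a call that was lost at 0.97 without brain replicate 1. It was lower in bone marrow by -1.09 ± 0.09 (limma adjusted p = 1.83e-10). The lung epithelium markers (2 of 3: Cxcl15 and Sftpd) summed to between 10672 and 19450 in lung and at most 933 elsewhere. The endothelial markers (5 of 8) summed to between 6824 and 7804 in lung and at most 2432 elsewhere. The neuron and glia markers (5 of 5) summed to between 4190 and 5527 in brain and at most 3022 elsewhere. None of these markers was at 0, and their part in the Igfbp2 differences was not tested.

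Lifr D17444_s_at was higher in kidney by 1.39 ± 0.15 (2.62-fold, limma adjusted p = 2.00e-08), in a contrast that called 14.8% of all mouse probe sets and 1 of the 5. Egfr was higher in kidney by 0.93 ± 0.09 (1.90-fold, limma adjusted p = 1.02e-08) and stayed under the size threshold. The hepatocyte marker sum was also above the other non-liver tissues in kidney, between 2012 and 2328 against at most 1727. Its part was not tested. Lifr D17444_s_at differed in brain by -0.92 and in testis by -0.68, both under the size threshold. Differences of NM_013584_s_at in the 8 contrasts lay between -0.21 in kidney and 0.15 in lung, with adjusted p of at least 0.216.

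**Figure D4:**
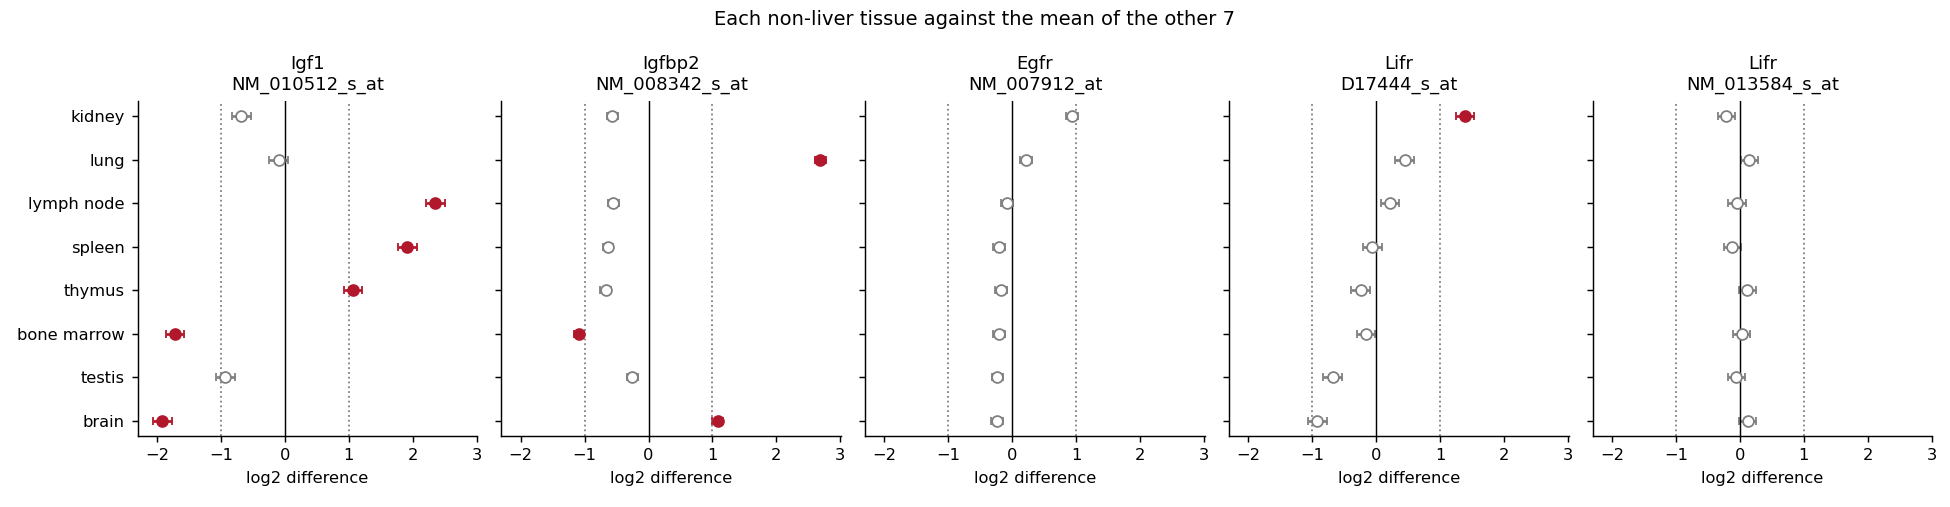
Log2 difference of each non-liver tissue from the mean of the other 7, for the 5 probe sets; points are estimates from 3 arrays a tissue and bars are SE. Filled red points passed both thresholds, and dotted lines mark a difference of 1 either way. Igf1 is high in lymph node, spleen and thymus, Igfbp2 in lung and brain, and Lifr D17444_s_at in kidney.

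The tissue next after liver was lymph node for Igf1, lung for Igfbp2, and kidney for both Egfr and Lifr D17444_s_at. Egfr and Lifr D17444_s_at had the most alike profiles, with r = 0.96 over 9 tissue means and 0.91 over the 8 non-liver means. Igf1 and Igfbp2 correlated at 0.40 and -0.21. With liver left out, the other pairs among Igf1, Igfbp2, Egfr and Lifr D17444_s_at were between -0.09 and 0.22. These values over 9 or 8 points share arrays and carry no test. Outside liver 21 of 24 Egfr arrays and 20 of 24 Lifr D17444_s_at arrays were below the human probe set median. Kidney was the highest of the non-liver tissues for both, and r without kidney was not computed.

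Other genes were ranked by Pearson r of tissue means, with 1 probe set a gene. Over 9 tissues the profile most like Egfr was that of Mbl1, a mannose-binding lectin made in liver (r = 0.99). Asgr2, a subunit of the hepatocyte receptor for asialoglycoproteins, Mbl2, Amh and Ugt2b5 followed, each at 0.96. The 5 closest to Lifr D17444_s_at were Gnpnat1, an enzyme of UDP-N-acetylglucosamine synthesis (0.97), Ugp2, which makes UDP-glucose (0.94), Ugt2b5, Mbl1 and Sod1. Closest to Igf1 were Lgals8, which encodes galectin 8 (0.95), the chemokine gene Ccl22 (0.92), Man2a1, St3gal1 and Cmah. Closest to Igfbp2 were Bmp1 (0.93), the syndecan gene Sdc1 (0.91), Fgfr2 (0.91), Siglecf and Ids. For Lifr NM_013584_s_at no r exceeded 0.79, and Il17b, Tgfb3, Tnfrsf19, Hs2st1 and Wnt4 led.

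Without liver some of the nearest genes stayed, among them Lgals8 for Igf1, Mbl1 for Egfr, and Il17b and Wnt4 for Lifr NM_013584_s_at. The chemokine receptor gene Xcr1 (0.95), Lgals8 (0.95) and Ccl21b (0.94), a chemokine of lymphoid tissue, were closest to Igf1. Fzd2 (0.95), Tgfb3 (0.94) and Tgfb2 (0.92), all highest in lung among these tissues, were closest to Igfbp2. Papss2 (0.98), Met (0.96) and Mbl1 (0.93) were closest to Egfr, and Renbp (0.97), Lamp2 (0.94) and Aga (0.93) to Lifr D17444_s_at. All 6 were highest in kidney among the 8 tissues. For Lifr NM_013584_s_at they were Il17b (0.82), Wnt4 (0.78) and Neu3 (0.77).

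The ligands, receptors and relatives of the 4 genes were then compared between liver and the other 8 tissues. Lists of growth factor genes gave 47 probe sets of 42 genes besides the 4. Of these 7 were called, 1 higher and 6 lower, or 14.9%, where 14.4% of all 702 were called (31 higher and 70 lower). Their median difference was -0.05 on the log2 scale, beside -0.08 over all mouse probe sets. A share this near to that of all probe sets shows nothing particular to the lists. Of the 28 direct partners looked for, 14 were measured.

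In the insulin-like growth factor axis 7 of 23 genes were measured, and of the 6 probe sets besides Igf1 and Igfbp2 0 were called higher and 2 lower. Igf1r encodes the receptor for Igf1. Its probe set AF056187_s_at was lowest in liver, at 200 ± 19.7, and highest in kidney, at 1187 ± 185.0 (SD, n = 3). It differed by -1.36 ± 0.17 (limma adjusted p = 3.33e-07). The other Igf1r probe set, AF056187_at, gave 379.7 ± 50.8 in liver and a difference of -0.14 (limma adjusted p = 0.400), so the pair did not give the same call. Igfbp5, another binding protein, was at 148 ± 4.80 in liver and 1046 ± 102.6 in kidney, a difference of -1.56 ± 0.14 (limma adjusted p = 2.27e-09). Igfbp1 was highest in liver, at 307 ± 40.2, with a difference of 0.86 that missed the size threshold (limma adjusted p = 5.45e-07). Igfbp3 differed by -0.36 (limma adjusted p = 0.155) and Igf2, the second ligand, by -0.21 (limma adjusted p = 0.0464). Igf2 was highest in brain, at 1130.5 ± 36.8, and called there among non-liver tissues, at 1.13 (limma adjusted p = 1.69e-10).

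In the epidermal growth factor axis 5 of 20 genes were measured. None of the 4 probe sets besides Egfr was called by limma, and 2 of them had an unadjusted p under 0.05. The ligand genes Btc (113 ± 9.27 in liver) and Hbegf (434 ± 23.6) differed by 0.01 and -0.18. The related receptors Erbb3 (315 ± 76.5) and Erbb4 (327 ± 70.7) differed by 0.46 and 0.10 (limma adjusted p = 0.00117 and 0.468). Erbb3 was highest in liver, but liver arrays from 244 to 396 overlapped those of kidney, from 274 to 318.

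In the family of leukemia inhibitory factor and interleukin 6, 11 of 27 genes were measured, and of 12 probe sets besides Lifr 0 were called higher and 3 lower. Il6st, for the shared chain gp130, gave 806 ± 139.0 in liver and means between 762 and 1275 in all tissues, with a liver difference of -0.22 (limma adjusted p = 0.194). Osmr, the receptor chain for oncostatin M, was low in liver with both of its probe sets, and also in testis, bone marrow and brain. Means in those 3 tissues were 31.7, 34.9 and 45.4 for NM_011019_at. For NM_011019_s_at they were 95.6, 77.4 and 110.1. NM_011019_at gave 40.1 ± 7.14 in liver and 497 ± 11.9 in lung, a difference of -1.41 ± 0.17 (limma adjusted p = 2.50e-07). NM_011019_s_at gave 113 ± 6.32 in liver and 954 ± 55.9 in lung, a difference of -1.04 ± 0.13 (limma adjusted p = 1.95e-07). The Osmr pair correlated at 0.99 over 9 tissues, beside -0.49 for the Lifr pair. Csf3r (NM_007782_at), the granulocyte growth factor receptor, had a liver mean of 14.0, under the floor of 16 used before logs, so its difference of -1.78 depends on that floor. The other Csf3r probe set, NM_007782_s_at, gave 429.8 in liver and was not called, at -0.52. The ligand genes Lif and Ctf1 and the receptor gene Cntfr differed by 0.07, 0.70 and 0.09. Ctf1 gave 368 in both liver and kidney.

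Among other growth factors and receptors of liver 23 of 28 genes were measured with 25 probe sets, and 1 was called higher and 1 lower. Mst1, which encodes macrophage-stimulating protein, a liver-made relative of hepatocyte growth factor, gave 729 ± 50.7 in liver and at most 215 as a mean elsewhere. Its difference was 1.84 ± 0.07 (3.58-fold, limma adjusted p = 2.95e-16). Its receptor gene Mst1r was also highest in liver, at 447 ± 11.4, with a difference of 0.67 under the size threshold. Tgfb1 was at 142 ± 9.14 in liver and 1367 ± 219.0 in spleen, a difference of -1.48 ± 0.20 (limma adjusted p = 1.02e-06).

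**Figure D5:**
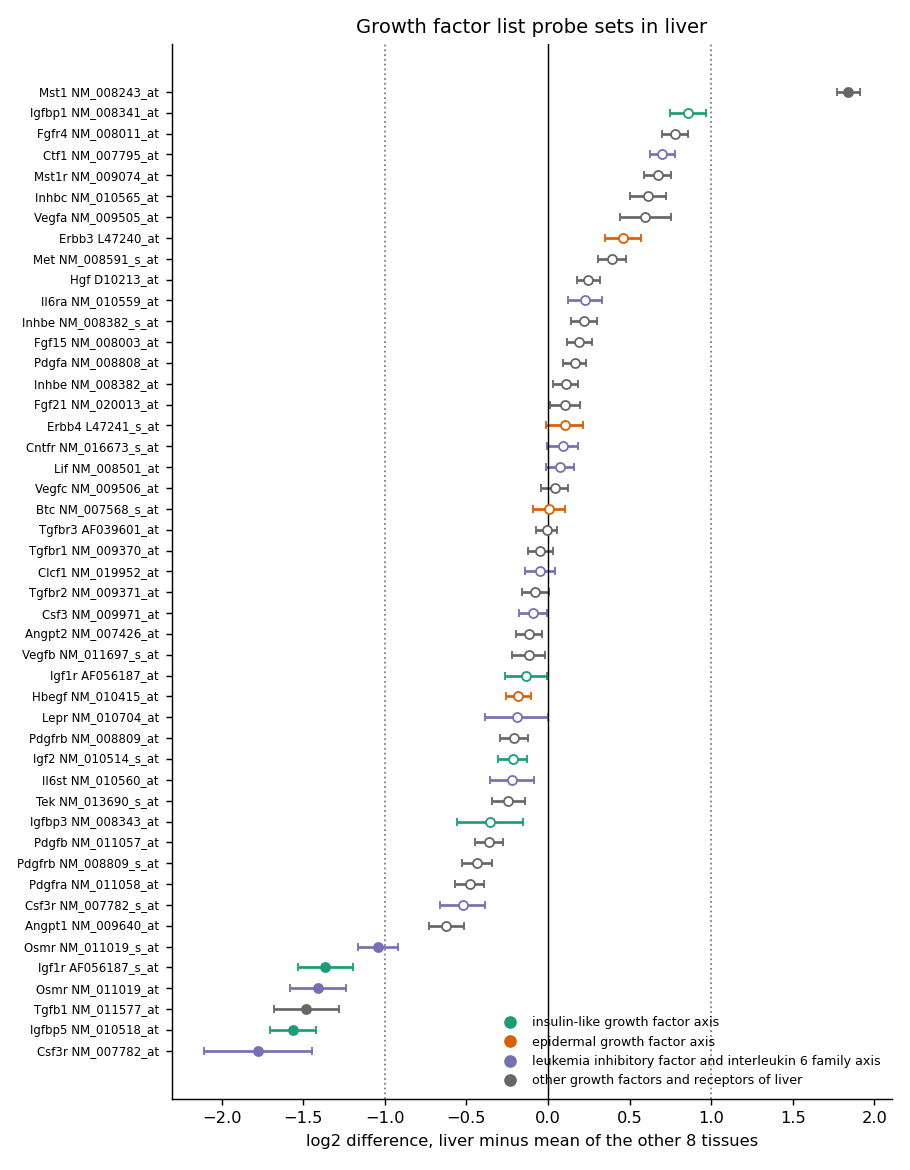
Log2 difference between liver and the mean of the other 8 tissues for the 47 probe sets of the growth factor lists, from 3 arrays a tissue, with SE as bars. Colours give the list, filled points passed both thresholds and dotted lines mark a difference of 1 either way. Mst1 is the 1 filled point to the right and 6 lie to the left.

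Among the non-liver tissues the listed probe sets were called most often in lung, with 11 of 47 (23.4%), all of them higher. Of all mouse probe sets 11.5% were called there in either direction, 68 higher and 13 lower. The 11 included Tek, Pdgfra, Vegfa and both probe sets of Osmr and of Pdgfrb. Tek and Pdgfrb are also on the marker lists for endothelium and fibroblasts. In kidney, where Lifr D17444_s_at was called, Igf1r AF056187_s_at (1.37), Igfbp5 (1.43), Met (1.13) and Vegfa (1.54) were higher and Tgfb1 was lower, 5 of 47 (10.6%) against 14.8% of all. In lymph node, where Igf1 was called, 2 of 47 (4.26%) were called, both probe sets of Osmr (1.97 and 1.76), against 13.0% of all.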

How the data were processed

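The study measured RNA from 9 tissues with 3 arrays a tissue, each carrying 1 biotin-labelled sample, per the labels. The authors deposited linear intensity values, which were kept as they stand; the sources used here do not give how these were summarised, background-corrected or scaled. Names came from the platform annotation, updated through RefSeq. Of 1813 probe sets, 702 matched a mouse gene. Intensities under 16 were raised to 16 (51 mouse values) before taking log2. A model in limma 3.58.1 (under R 4.3.3) held a coefficient for each tissue and used all 27 arrays. The fit was tested on simulated data. The 4 genes, the lists and the named genes (all members, direct partners, called list genes and the nearest profiles) were chosen with earlier results of these data known, so liver levels of the 4 genes carry no test. Alternatives were other scalings, floors, filters, weights, a replicate block and leaving out each array. The number of arrays limits the precision. Replicate numbers were not taken to pair arrays across tissues.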

Additional observations from a re-analysis of the deposited data

How the results depend on the processing

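No called difference changed sign. Differences of Lifr NM_013584_s_at, none of them called, changed sign 9 times over 5 contrasts, with sizes of at most 0.20: for example liver (-0.09) was 0.01 with median centring, testis (-0.05) was 0.08 with quantile normalization, and with array weights lymph node (-0.04) was 0.07 and brain (0.12) was -0.15. With the third of probe sets of lowest mean (234) left out, fewer probe sets were tested and some counts fell. Bone marrow gave 49 calls in place of 75, lung 52 in place of 81 and the growth factor lists 4 in place of 7. Egfr and both Lifr probe sets were among those left out, so this setting did not check them. All other counts of calls under every alternative stayed within 1.5 times. Rescaling moved a single array by at most 0.16 (log2). Calls whose size lies near the threshold of 1 were lost: Igf1 in thymus (0.97 with an offset of 16, 0.95 with array weights, 0.87 without thymus replicate 1), Igfbp2 in brain (0.97 without brain replicate 1), the Egfr range (0.94 with the offset, 0.96 without kidney replicate 2), Osmr NM_011019_s_at (-0.93 with quantile normalization, -0.95 with median centring, -0.98 with the offset) and Csf3r (-0.61 with a floor of 64). With quantile normalization the liver differences of Egfr and Igfbp2 were 3.26 and 3.24. Without liver replicate 1 or 2 that of Egfr was 3.26 or 2.92. Leaving out 1 array at a time, the counts of calls ranged from 72 to 78 in bone marrow, 124 to 128 in brain, 102 to 105 in kidney, 76 to 83 in lung, 89 to 97 in lymph node, 77 to 81 in spleen, 114 to 123 in testis and 46 to 50 in thymus. Same-numbered arrays of different tissues had a median r of 0.02 over 108 pairs, 23 of them over 0.1, with a highest r of 0.575. Arrays with different numbers had a median r of 0.01 over 216 pairs, 58 of them over 0.1, with a highest r of 0.419. These values do not settle whether the numbers pair arrays, and numbers were not taken to do so. With the number as a block the counts were unchanged, for example 344 among the non-liver tissues, 104 in kidney and 7 in the lists. Values near or below the human probe set median of 205.2 may carry little signal over background. This median is a rough guide and not a floor for each probe set. Differences between non-liver tissues made up 94.0% of the variance of Lifr D17444_s_at, with 20 of 24 arrays below it. For Lifr NM_013584_s_at they made up 21.3%, with 23 of 24 arrays below it.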
